A study of Mus musculus with 24 samples.

Results

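Cyp4a12a and Cyp4a12b are neighbouring mouse genes for cytochrome P450 enzymes of the Cyp4a group. They were chosen by gene symbol, as the 2 rows named Cyp4a12a and Cyp4a12b among the 2372 rows of an expression table of mouse liver. Both are described in all 24 libraries of that table, 1 library per mouse. Values are FPKM, fragment counts scaled to the transcript's length and to the total of mapped fragments, so that levels of different genes are on one scale per length. The table is a set of genes and not the whole transcriptome, so each rank, share of genes and adjusted p-value below holds within these 2372 rows.

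The mice received AAV (adeno-associated virus) vectors in a pair of injections and all of them took the Lieber-DeCarli alcohol diet for 3 weeks. The first injection carried AAV-shKdm5b together with AAV-shKdm5c, or the control vector AAV-shControl. The second carried AAV-shAhR or AAV-shControl. These short hairpin vectors are directed against the histone demethylases KDM5B and KDM5C, which remove methyl groups from lysine 4 of histone H3, and against AhR, the aryl hydrocarbon receptor, a transcription factor activated by ligands. Crossed with sex, they gave 8 groups of 3 mice: in each sex, control vectors only, Kdm5 vectors with a control second injection, the AhR vector with a control first injection, and both kinds of vector. No group was without alcohol or without vector. Strain, age, the promoter of the vectors and the cells that took them up were not given in the sources used here. Mice are numbered 1 to 3 within a group as names only.

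CYP4A enzymes add a hydroxyl group to the terminal, or omega, carbon of fatty acids. The product can be oxidised further to a dicarboxylic acid and shortened in peroxisomes. The mouse Cyp4a12 enzymes also hydroxylate arachidonic acid to 20-hydroxyeicosatetraenoic acid, a lipid that constricts small vessels. In mice, Cyp4a12 expression in liver and kidney is known to be higher in males and to depend on androgens and on the male pattern of growth hormone release, whereas the neighbouring Cyp4a10 and Cyp4a14 are classic targets of the fatty acid receptor PPAR alpha.

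The 2 genes lie on chromosome 4 of GRCm38 on the plus strand. In the GENCODE vM21 annotation of that build, Cyp4a12a spans chr4:115299046-115332815 and Cyp4a12b spans chr4:115411624-115439034, each with 12 exons, with 78808 bp between them. Cyp4a29 lies before them, and Cyp4a30b, Cyp4a14, Cyp4a10, Cyp4a31 and Cyp4a32 follow. Their coding sequences have the same length of 1524 bases, or 508 codons without the stop codon, and differ at 23 positions, which leaves them 98.5% identical. Of the 21 codons that differ, 11 encode a different amino acid. The first 342 coding bases are the same in both, and every difference lies between coding positions 343 and 1227, counted from the A of the start codon.

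Stretches of the coding sequence are shown because they bear on how far reads can be told apart between the copies. The first 120 coding bases, in exon 1, at chr4:115299128-115299247 in Cyp4a12a and chr4:115411683-115411802 in Cyp4a12b, are the same in both genes:
Both copies: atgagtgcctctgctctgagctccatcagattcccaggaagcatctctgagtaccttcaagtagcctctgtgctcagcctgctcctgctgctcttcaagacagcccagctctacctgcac
The 120 coding bases from position 644 to 763, in exon 6, hold 8 of the 23 differences, printed in capitals. They lie at chr4:115326642-115326761 in Cyp4a12a and at chr4:115432895-115433014 in Cyp4a12b:
Cyp4a12a: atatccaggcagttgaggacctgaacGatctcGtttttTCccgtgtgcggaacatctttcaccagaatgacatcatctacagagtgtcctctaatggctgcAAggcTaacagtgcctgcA
Cyp4a12b: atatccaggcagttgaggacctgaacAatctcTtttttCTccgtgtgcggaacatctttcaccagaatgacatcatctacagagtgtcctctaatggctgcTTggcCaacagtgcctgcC
A fragment that lies within the first stretch matches both genes, while in the second stretch a fragment can be assigned where it covers a capital letter.

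**Figure D1:**
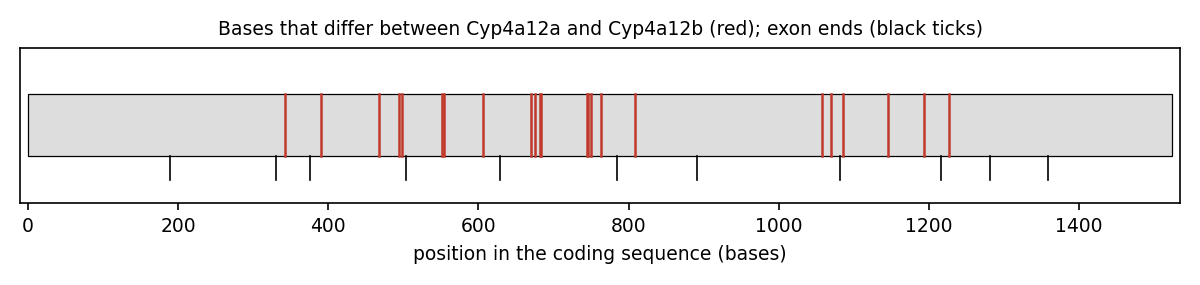
Positions at which the coding sequences of Cyp4a12a and Cyp4a12b differ, by coding position in bases from the start codon. Each red line is 1 of the 23 differences and the black ticks below mark the ends of coding exons; the first 342 bases carry no red line.

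Over whole transcripts of 2422 bases for Cyp4a12a and 2395 bases for Cyp4a12b the copies were 97.1% identical. Of all windows of 50 bases in the Cyp4a12a transcript, 48.9% also occurred in Cyp4a12b, and of windows of 100 and 150 bases the shares were 35.8% and 25.6%. Read length and the treatment of reads that match both genes were not given in the sources used here. The separate values of the copies are therefore uncertain. Each comparison by sex or vector was also fitted on the sum of both, with all 24 libraries. Fits to fewer libraries, other settings and the likeness between genes used the separate values only. No promoter of either gene is printed.

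In males, Cyp4a12a was expressed at 155 FPKM on average over the 12 mice (SD 22.7) and Cyp4a12b at 71.3 FPKM (SD 13.2). In females the averages were 1.64 FPKM (SD 1.11, n = 12) and 0.741 FPKM (SD 0.649, n = 12). The ranges were far apart: the highest female value was 4.58 FPKM for Cyp4a12a and 2.54 FPKM for Cyp4a12b, and the lowest male values were 115.51 and 46.27 FPKM. By mean FPKM in males Cyp4a12a stood at place 325 and Cyp4a12b at place 592 of the 2372 genes, and in females at places 2147 and 2273.

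Among males, the 3 mice with control vectors had Cyp4a12a at 167.33, 190.93 and 165.89 FPKM. The males with the Kdm5 vectors had 137.38, 160.97 and 115.51 FPKM. The males with the AhR vector had 156.64, 142.21 and 130.95 FPKM. The highest Kdm5 male and the highest AhR male were both below the lowest control male, as was so for 5.09% and 4.31% of all 2299 genes tested. With both kinds of vector the values were 189.07, 163.6 and 139.7 FPKM, and these overlapped with all other male groups. The order of the group means was control (175 ± 14.1 FPKM, SD, n = 3), both (164 ± 24.7), AhR (143 ± 12.9) and Kdm5 (138 ± 22.7), and the ranges of each pair of neighbours in that order overlapped.

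Cyp4a12b had lower values in males, and its group means stood in another order. Control males had 77.05, 72.05 and 86.31 FPKM. Males with the Kdm5 vectors had 47.96, 66.55 and 46.27 FPKM, the 3 lowest of the 12 males. Males with the AhR vector had 76.79, 69.21 and 72.03 FPKM, and males with both had 79.96, 90.04 and 71.13 FPKM. The group means were 53.6 ± 11.3 FPKM (SD, n = 3) with the Kdm5 vectors, 72.7 ± 3.83 with the AhR vector, 78.5 ± 7.24 with control vectors and 80.4 ± 9.46 with both, and the last 3 groups overlapped. Kdm5 males below all control males were found for 5.09% of all genes, and Kdm5 males below all males with both for 10.5%.

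In females, Cyp4a12a stood at 1.49, 1.18 and 1.78 FPKM with control vectors. It stood at 2.7, 1.49 and 0.56 FPKM with the Kdm5 vectors, at 0.73, 4.58 and 1.08 FPKM with the AhR vector, and at 1.49, 0.62 and 2.01 FPKM with both. Each vector group held mice above and below the control range, so no female group stood apart. The female group means, from high to low, were 2.13 (AhR, SD 2.13), 1.58 (Kdm5, SD 1.07), 1.48 (control, SD 0.300) and 1.37 FPKM (both, SD 0.702).

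Female Cyp4a12b values were close to the bottom of the table. Control females had 0.34, 0.6 and 0.7 FPKM and Kdm5 females had 1.46, 0.48 and 0.51 FPKM. Values were 0.43, 2.54 and 0.29 FPKM with the AhR vector and 0.39, 0.35 and 0.8 FPKM with both. Only 2 of the 12 females reached 1 FPKM, so the gene passed the filter of at least 1 FPKM in at least 3 libraries through the males. The 4 female groups overlapped. FPKM carry no read depth, so no counting error can be given for these low values.

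**Figure D2:**
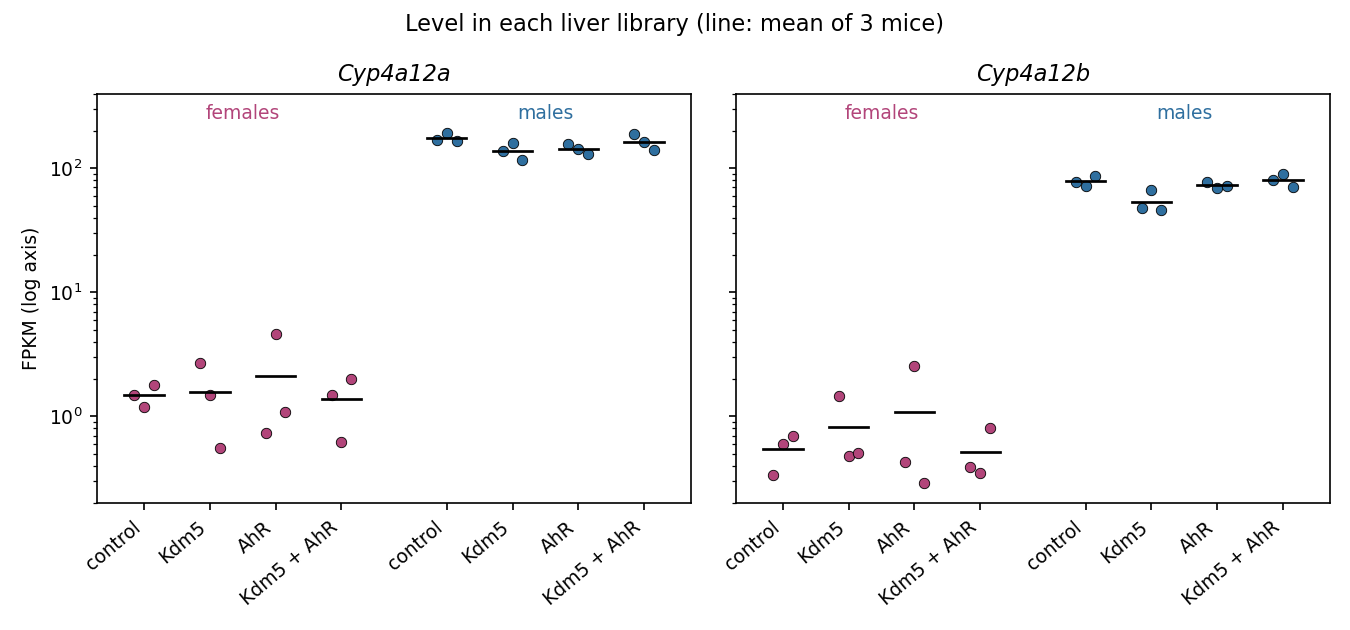
FPKM of Cyp4a12a (left) and Cyp4a12b (right) in each of the 24 mice by group, on a log axis; each point is a mouse and each line a group mean (n = 3). The 12 males lie between 46.27 and 190.93 FPKM and the 12 females between 0.29 and 4.58 FPKM.

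Sex was compared within each vector setting with limma on log2(FPKM + 0.5), fitted to all 24 libraries and 2299 genes. Differences are female minus male, and on this scale the added 0.5 FPKM makes the change of low genes look smaller. With control vectors Cyp4a12a was lower in females by a log2 difference of -6.47 ± 0.40 (SE; limma, Benjamini-Hochberg adjusted p = 1.1e-10), and Cyp4a12b by -6.25 ± 0.35 (adjusted p = 2.1e-11). The summed FPKM of both copies gave -6.66 (limma adjusted p = 1.6e-10). The ratio of the group means in FPKM was 118 for Cyp4a12a and 144 for Cyp4a12b, male over female. In that comparison 42.5% of all genes passed the adjusted threshold of 0.05 in either direction. Ordered from the lowest difference, the pair held places 2 and 3 of the 2299 genes, after the major urinary protein gene Mup7 (-6.81).

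The difference passed the test in the other 3 vector settings too. With the Kdm5 vectors it was -6.18 for Cyp4a12a (limma adjusted p = 2.8e-10) and -5.42 for Cyp4a12b (adjusted p = 2.4e-10), and 36.3% of genes passed. With the AhR vector the log2 differences were -6.06 (adjusted p = 3.3e-10) and -5.81 (adjusted p = 6.9e-11), and 39.2% of genes passed. With both they were -6.52 (adjusted p = 9.7e-11) and -6.34 (adjusted p = 1.9e-11), and 49.2% of genes passed. All 3 females were below all 3 males in each of the 8 comparisons. Ratios of mean FPKM, male over female, were 87.1, 67.3 and 120 for Cyp4a12a and 65.6, 66.9 and 157 for Cyp4a12b in the Kdm5, AhR and combined settings, and they rest on female means near or below 2 FPKM. Single females moved them: without mouse 2 of the AhR females the AhR ratios were 158 for Cyp4a12a and 202 for Cyp4a12b, and without mouse 1 of the Kdm5 females the Kdm5 ratios were 135 and 108. These ratios with a mouse left out were computed after the data were seen, and no other mouse moved a ratio by over 1.5 times.

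The liver was sequenced whole, and in such a bulk sample fewer cells of a type and less RNA per cell cannot be told apart. Hepatocytes are the cells in which Cyp4a enzymes are known to be made. Of 16 hepatocyte markers 9 were in the table, none at 0, and their summed level was 35122 to 46727 FPKM in females and 41249 to 46968 FPKM in males. Summed markers of Kupffer cells, stellate cells and sinusoidal endothelium were higher in females. Of 11 Kupffer cell markers, the 8 in the table summed to 416 to 581 FPKM in females and 214 to 398 FPKM in males. The 7 of 10 stellate cell markers in the table summed to 131 to 197 and 86.0 to 119 FPKM, and the 6 of 8 sinusoidal endothelial markers to 70.6 to 110 and 46.3 to 66.0 FPKM. The 1 cholangiocyte marker in the table, Sox9, overlapped between the sexes, at 0.66 to 1.59 FPKM in females and 0.70 to 2.44 FPKM in males. The 1 lymphocyte marker, Ptprc, overlapped too, at 1.81 to 4.13 and 0.95 to 2.29 FPKM. None of these markers was at 0 in a whole group, and no neutrophil marker was in the table. The part of these cell types in the sex difference was not tested. The median log2 difference of all 2299 genes with control vectors was 0.15 as deposited and -0.00 after median-of-ratios scaling, and both members were lower in females in all 4 settings under either scaling.

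Eif2s3y, Uty, Kdm5d and Ddx3y, which lie on the Y chromosome, split the 24 libraries by labelled sex without overlap. Kdm5c, 1 of the targeted genes, was at 6.39 to 7.81 FPKM in males without the Kdm5 vectors and at 4.64 to 5.89 FPKM in males with them. In females the ranges overlapped, at 9.32 to 13.07 and 9.05 to 12.46 FPKM. Kdm5b and Ahr were not in the table used here, so the effect of the vectors on these targets could not be checked. The summed FPKM of the table was 281871 to 326460 in females and 380206 to 429780 in males, and 20 Mup genes held 2.27 to 5.95% of it in females and 14.1 to 25.7% in males.

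Vectors were compared within each sex. The comparisons against control vectors share the same 3 control mice. In males the Kdm5 vectors gave a log2 difference of -0.35 for Cyp4a12a (95% interval -1.19 to 0.49, limma adjusted p = 0.89) and of -0.56 for Cyp4a12b (95% interval -1.29 to 0.17, adjusted p = 0.70). Neither passed, as against 1.22% of all genes. Both members had Kdm5 males entirely below control males, a pattern that 5.09% of genes showed in that direction. For the summed FPKM of both copies the difference was -0.42 (limma adjusted p = 0.88). The sums were 161.78 to 227.52 FPKM in Kdm5 males and 244.38 to 262.98 FPKM in control males.

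The standard errors in this fit, 0.40 for Cyp4a12a and 0.35 for Cyp4a12b, were set mostly by females. Within groups, the SD of log2 values was 0.75 among females and 0.18 among males for Cyp4a12a, and 0.64 and 0.18 for Cyp4a12b, with 8 degrees of freedom each. A fit to the 12 males alone, chosen after the data were seen and made on 2203 genes, gave both members a standard error of 0.14. In it the Kdm5 difference of -0.56 for Cyp4a12b had an unadjusted p of 0.0015 and a limma adjusted p of 0.083. For Cyp4a12a the -0.35 had an unadjusted p of 0.024 and an adjusted p of 0.34. Neither passed, where 20 of the 2203 genes did. For the AhR vector against control vectors the unadjusted limma p was 0.057 for Cyp4a12a and 0.45 for Cyp4a12b. With both kinds of vector against control vectors these were 0.48 and 0.82. For the Kdm5 vectors added to the AhR vector they were 0.19 and 0.33. The summed copies were not fitted in the males alone.

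The AhR vector in males gave -0.29 for Cyp4a12a (95% interval -1.13 to 0.56, limma adjusted p = 0.82) and -0.11 for Cyp4a12b (95% interval -0.84 to 0.63, adjusted p = 0.94). Of all genes 1.09% passed. AhR males did not overlap with control males for Cyp4a12a, as was so, in the lower direction, for 4.31% of genes. For Cyp4a12b they did overlap. For the summed FPKM the difference was -0.23 (limma adjusted p = 0.87). The sums were 202.98 to 233.43 FPKM in AhR males and 244.38 to 262.98 FPKM in control males. With both kinds of vector the differences from control males were -0.10 for Cyp4a12a (adjusted p = 0.95) and 0.03 for Cyp4a12b (adjusted p = 0.99). There 2.35% of genes passed.

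Adding the AhR vector to the Kdm5 vectors in males gave higher values of Cyp4a12b without overlap, 71.13 to 90.04 FPKM against 46.27 to 66.55 FPKM. The log2 difference was 0.59 (95% interval -0.14 to 1.33, limma adjusted p = 0.41), and 0.913% of genes passed. Groups that did not overlap in this direction were found for 10.5% of genes. In the males alone, where 8 of 2203 genes passed, the same difference had an unadjusted p of 0.00098. Its limma adjusted p of 0.067 was still short of the threshold. For Cyp4a12a the difference in all libraries was 0.25 (adjusted p = 0.81) with overlapping groups. For the summed FPKM of both copies it was 0.36 (limma adjusted p = 0.72), and there the groups overlapped too. The sums were 161.78 to 227.52 FPKM with the Kdm5 vectors and 210.83 to 269.03 FPKM with both. Adding the Kdm5 vectors to the AhR vector gave 0.19 for Cyp4a12a (adjusted p = 0.88) and 0.14 for Cyp4a12b (adjusted p = 0.91), where 3.26% of genes passed. The interaction of the vectors in males, 0.54 for Cyp4a12a (adjusted p = 0.91) and 0.70 for Cyp4a12b (adjusted p = 0.71), did not pass either, as against 1.61% of genes. In the fit to males alone it had an unadjusted p of 0.016 and a limma adjusted p of 0.22 for Cyp4a12a. For Cyp4a12b these were 0.0035 and 0.11, so neither passed there, where 13 of 2203 genes did.

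In females no vector comparison of either member passed, and all groups overlapped. The Kdm5 vectors gave log2 differences of -0.06 for Cyp4a12a (95% interval -0.90 to 0.79, limma adjusted p = 0.96) and 0.27 for Cyp4a12b (95% interval -0.46 to 1.00, adjusted p = 0.71), with 6.87% of genes passing. The AhR vector gave 0.12 (95% interval -0.72 to 0.97, adjusted p = 0.95) and 0.34 (95% interval -0.40 to 1.07, adjusted p = 0.76), with 0.217% passing. Both kinds of vector gave -0.15 (95% interval -0.99 to 0.70, adjusted p = 0.84) and -0.06 (95% interval -0.79 to 0.68, adjusted p = 0.93), where 11.6% of genes passed. The widest reach of these intervals, from -0.99 to 1.07, does not show that the vectors left the female level as it was.

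The AhR vector added to the Kdm5 vectors in females gave -0.09 for Cyp4a12a (limma adjusted p = 0.93) and -0.33 for Cyp4a12b (adjusted p = 0.64), where 2.09% of genes passed. The Kdm5 vectors added to the AhR vector gave -0.27 (adjusted p = 0.81) and -0.39 (adjusted p = 0.65), where 0.696% passed. The interaction in females was -0.21 (adjusted p = 0.93) and -0.66 (adjusted p = 0.69), where 0.609% passed.

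Whether a vector acted differently by sex was tested as the effect in females minus that in males. For the Kdm5 vectors this was 0.29 for Cyp4a12a (limma adjusted p = 0.83) and 0.83 for Cyp4a12b (95% interval -0.21 to 1.87, adjusted p = 0.41), and 1.74% of genes passed. For the AhR vector it was 0.41 (adjusted p = 0.80) and 0.44 (adjusted p = 0.73), with 0.565% of genes passing. For both kinds of vector it was -0.05 (adjusted p = 0.96) and -0.09 (adjusted p = 0.91), with 5.92% passing. No difference by sex was thus detected for either member. The lowest unadjusted p of either member over all vector comparisons in the fit to all libraries was 0.11, for Cyp4a12b when the AhR vector was added to the Kdm5 vectors in males.

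**Figure D3:**
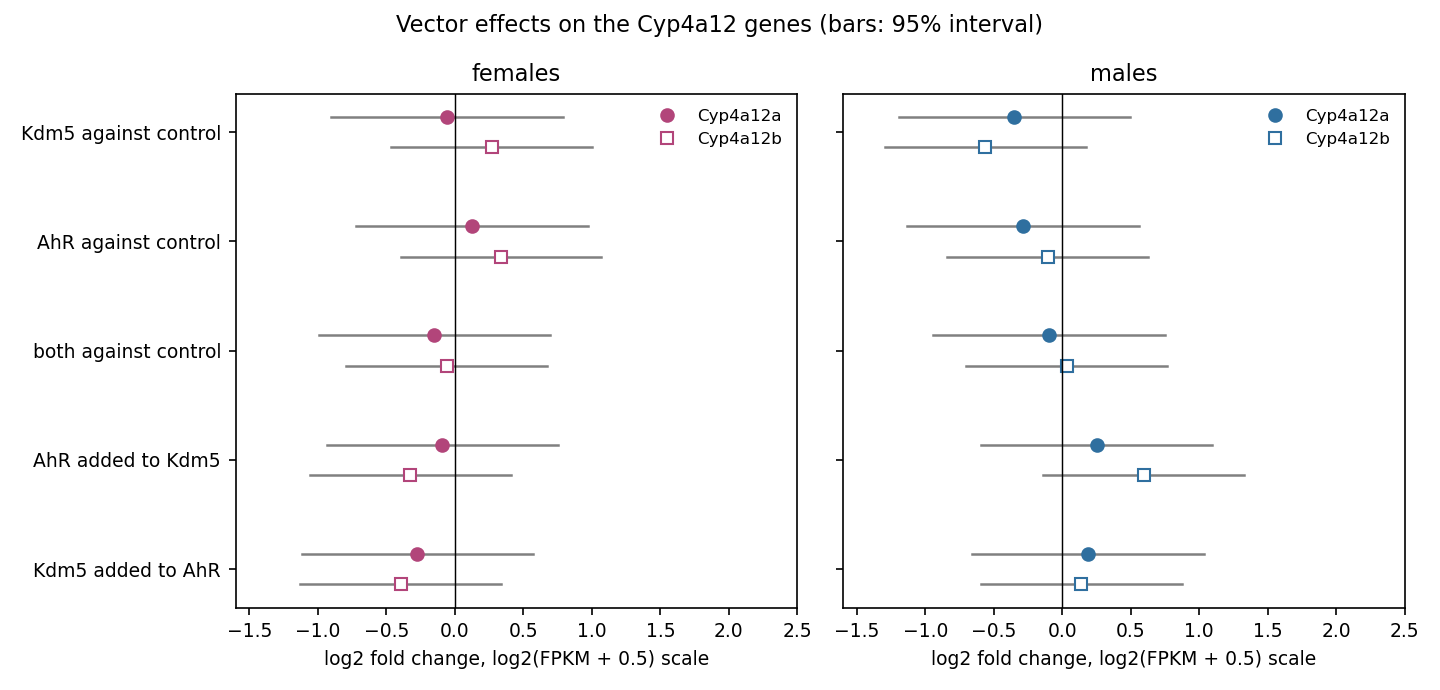
Log2 differences of Cyp4a12a and Cyp4a12b between vector groups within males and within females, from limma on log2(FPKM + 0.5) in all 24 libraries; points are estimates and bars are 95% intervals. Every interval includes 0.

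The balance of the copies was not detectably different between the sexes. Cyp4a12a made up 68.6% of the summed FPKM of both genes in males (SD 3.20, n = 12, range 64.5 to 74.1%) and 69.4% in females (SD 8.52, n = 12, range 52.3 to 81.4%). Among the 11 females whose sum was at least 1 FPKM, its mean share was 1.34 percentage points above that of the males (permutation test, two-sided, 100000 resamples, p = 0.63). By male group the mean share was 69.0% with control vectors, 66.3% with the AhR vector, 67.0% with both and 72.1% with the Kdm5 vectors, where the 3 mice had 74.1, 70.7 and 71.4%. How fragments from the shared stretches were divided between the genes is not known, and its part in this share was not tested.

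**Figure D4:**
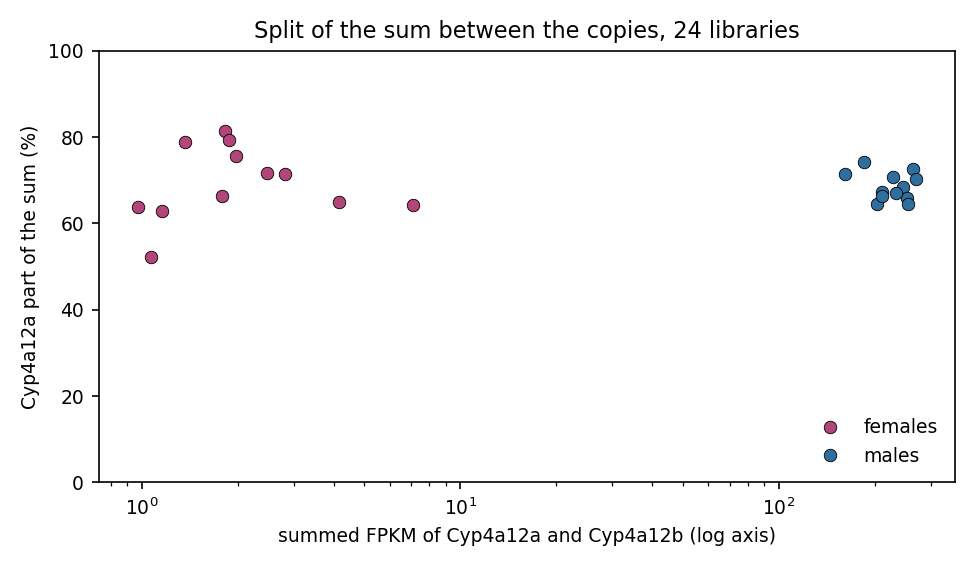
Share of Cyp4a12a in the summed FPKM of Cyp4a12a and Cyp4a12b in percent, against that sum in FPKM on a log axis; each point is a mouse, coloured by sex. Males lie between 64.5 and 74.1%, females between 52.3 and 81.4% at sums of 0.97 to 7.12 FPKM.

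Single females carried the upper end of the female range. Mouse 2 of the AhR group had the highest value of the 12 females for both members, 4.58 and 2.54 FPKM. It was also the highest female for 9 of the 21 listed male-biased genes in the table. Among them were Slco1a1, an organic anion transporter, at 26.35 FPKM against a female median of 4.29, Hsd3b5, a hydroxysteroid dehydrogenase, at 1.69 against 0.25, and Cyp7b1, an oxysterol hydroxylase, at 14.17 against 5.97. Other females were highest for the rest of the 21, and the same share over all genes was not computed. Mouse 1 of the Kdm5 group was second for both members, at 2.7 and 1.46 FPKM, and was the highest female for 0 of these 21 genes. Of the 23 listed female-biased genes in the table, mouse 2 of the AhR group was not the lowest female for any. Mouse 2 of the Kdm5 group was the lowest female for 12 of the 23. Without mouse 2 of the AhR group the female means were 1.38 FPKM for Cyp4a12a and 0.577 FPKM for Cyp4a12b (n = 11).

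The 8 other Cyp4 genes in the table, of 18 listed, had log2 sex differences between -0.72 and 0.15 with control vectors. By the test 0 of them were higher in females and 2 lower: Cyp4a32 (log2 difference -0.72, limma adjusted p = 0.0079) and Cyp4v3 (-0.45, adjusted p = 0.0016). That is 25% of the 8, where 42.5% of all genes passed. The median of the 8 was -0.20, against 0.15 over all genes. The PPAR alpha targets Cyp4a10 and Cyp4a14 had -0.60 (adjusted p = 0.072) and -0.17 (adjusted p = 0.59), and Cyp4a31 had -0.18 (adjusted p = 0.58). Of the F genes, which act on leukotrienes and other fatty acids, Cyp4f13 had -0.21, Cyp4f14 0.15 and Cyp4f15 0.03, and none passed. Cyp4a10 and Cyp4a14 were among the abundant genes in both sexes, with means of 2010 and 2781 FPKM in females and 2356 and 2225 FPKM in males. In the other 3 vector settings Cyp4a32 and Cyp4v3 were again lower in females, Cyp4a32 by up to -1.18 with the AhR vector (adjusted p = 0.00017), and Cyp4a14 was higher with both kinds of vector (0.63, adjusted p = 0.041). Of the 8 genes, 25% passed with the Kdm5 vectors, 25% with the AhR vector and 37.5% with both. The shares of all genes were 36.3, 39.2 and 49.2%. No Cyp4 gene of the list passed in any comparison of vectors with control vectors, in either sex. The nearest were in females, Cyp4f14 with both kinds of vector (-0.70, adjusted p = 0.056) and Cyp4a14 with the Kdm5 vectors (0.79, adjusted p = 0.057).

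**Figure D5:**
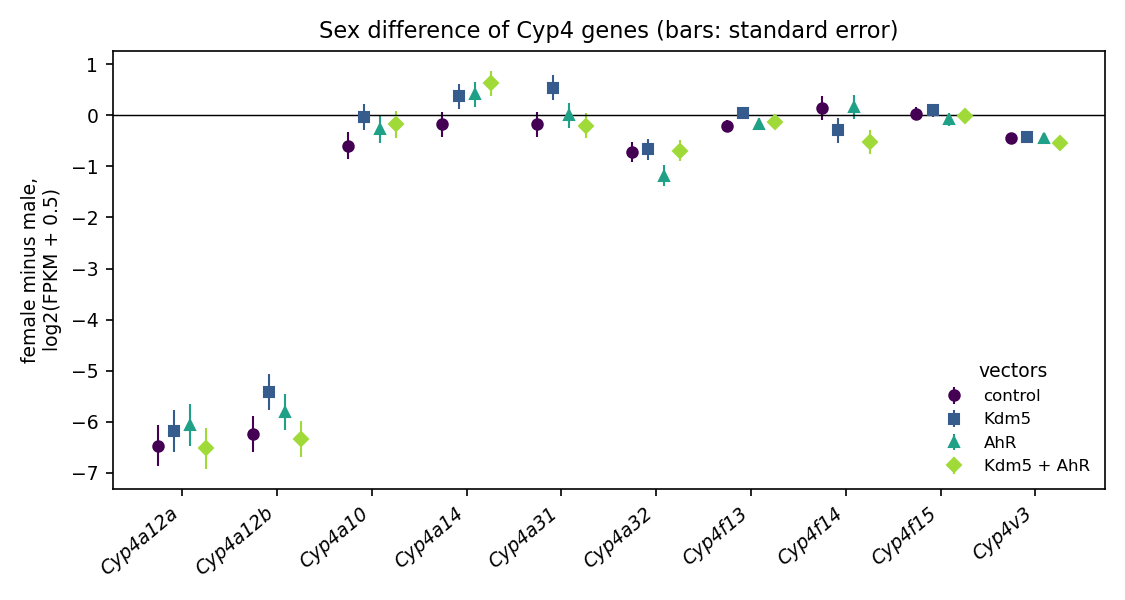
Log2 difference, female minus male, of Cyp4a12a, Cyp4a12b and the 8 other Cyp4 genes of the table in the 4 vector settings, from limma on log2(FPKM + 0.5); marker shapes are the settings and bars are standard errors. The pair lies between -6.52 and -5.42, and the other genes between -1.18 and 0.63.

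Other lists of sex-dependent liver genes were read in the same comparison, where 42.5% of all genes passed. Of 21 listed male-biased genes tested, 19 were lower in females with control vectors and 0 higher, with a median log2 difference of -2.58. The lowest were Mup20 (-4.74), the fatty acid elongase Elovl3 (-4.60) and Hsd3b5 (-4.48), all less far from 0 than both Cyp4a12 genes. All 22 tested female-biased genes were higher in females, with a median of 5.53, led by Cyp3a41a (9.66), Cyp2a4 (8.79) and Sult2a2 (8.17). These lists were named for sex bias known in mouse liver, so their direction is not independent evidence. Of 19 genes for growth hormone signalling and sex-biased transcription factors, 8 were higher and 0 lower in females (median 0.43), which at 42.1% is close to the share of all genes; among them were the transcription factor Cux2 (2.95), the prolactin receptor Prlr (2.14) and the signalling inhibitor Socs2 (1.65).

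Genes that work with or after the Cyp4a12 enzymes were read by list in the same way. Of all genes 42.5% passed with control vectors, 39.2% with the AhR vector and 49.2% with both kinds of vector. With control vectors none of the 3 electron donors of microsomal P450s passed (median -0.25). With the Kdm5 vectors 0% of the 3 passed, where 36.3% of all genes did. The cytochrome b5 gene Cyb5a and its reductase gene Cyb5r3 were lower in females with the AhR vector (-0.34 and -0.49, limma adjusted p = 0.012 and 0.010) and with both kinds of vector (-0.29 and -0.47, adjusted p = 0.023 and 0.0071). With control vectors, of 16 genes for later oxidation steps, 3 were higher and 6 lower in females (median -0.28), with Acot3, a peroxisomal thioesterase, at 2.44, Abcd2, a peroxisomal transporter, at 2.15 and the alcohol dehydrogenase Adh1 at 0.91. Of 11 PPAR alpha targets, 1 was higher and 2 lower (median -0.23), among them Pdk4 at 1.09 and Cidec at -2.0. Of 10 other eicosanoid genes, 5 were higher and 4 lower (median 0.33), and Cyp2c70, Cyp2c38 and Cyp2c37 had the largest differences at 1.84, 1.34 and 1.27.

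The same lists were read under the vectors, where neither Cyp4a12 gene passed. In males the Kdm5 vectors lowered 1 of 21 male-biased genes, the glucuronosyltransferase gene Ugt2b38 (-1.38, limma adjusted p = 0.037), with a list median of -0.18 against 0.01 over all genes; that is 4.76% of the list, where 1.22% of all genes passed. The AhR vector and the combination changed 0 of the 21 in males. Of the 19 growth hormone and transcription factor genes in males, the Kdm5 vectors raised 1, the xenobiotic receptor gene Nr1i2 (0.54, adjusted p = 0.031), and the AhR vector raised 1, the repressor gene Bcl6 (2.38, adjusted p = 0.00011). The combination raised Nr1i2 (0.59, adjusted p = 0.014) and the hepatocyte factor gene Hnf4a (0.54, adjusted p = 0.010). Of all genes 1.22% passed with the Kdm5 vectors, 1.09% with the AhR vector and 2.35% with the combination. None of the 11 PPAR alpha targets passed in males under any of these vectors.

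In females the AhR vector changed 0 of the 21 male-biased, 22 female-biased, 19 growth hormone and transcription factor and 11 PPAR alpha genes. The Kdm5 vectors lowered 1 male-biased gene, the glucuronosyltransferase gene Ugt2b1 (-0.61, limma adjusted p = 0.040), and both kinds of vector lowered 3, Slco1a1 (-2.26, adjusted p = 0.029), Mup3 (-0.93, adjusted p = 0.0094) and Ugt2b1 (-0.75, adjusted p = 0.013). These are 4.76% and 14.3% of the list, near the 6.87% and 11.6% of all genes that passed. With both, the male-biased list had a median of -0.47 against 0.02 over all genes. Of the 22 female-biased genes, 3 were lower with the Kdm5 vectors, led by Cyp3a44 (-1.68, adjusted p = 0.0046), where 6.87% of all genes passed. With both, 4 of the 22 were higher, led by Sult2a3 (2.88, adjusted p = 0.0098), and 1 lower, where 11.6% of all genes passed. PPAR alpha targets rose in 3 of 11 cases with the Kdm5 vectors, where 6.87% of all genes passed in either direction. Cpt2 (0.47, adjusted p = 0.039) and Hadha (0.31, adjusted p = 0.046) were among the 3, while Cyp4a12a and Cyp4a12b in the same comparison had -0.06 and 0.27.

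Likeness was described over mice of 1 sex, as the Pearson r of log2(FPKM + 0.5), and all values come from the same libraries. Over the 12 males Cyp4a12a was most like the mitochondrial carrier gene Slc25a30 among 2164 genes (r = 0.89, Spearman's rho = 0.92, and r = 0.86 without the 2 mice farthest from the Cyp4a12a median). Next came Cmas (0.79), Mrpl38 (0.79), Capns1 (0.79) and Pla1a (0.78). Cyp4a12b held place 24 in that order, with r = 0.68 and rho = 0.70, and r fell to 0.54 without the 2 farthest mice. Cyp4a12b was most like Znhit1 (0.80), Isoc2b (0.78), Ube2l6 (0.77), Bcar1 (0.77) and Lmf1 (0.76), and without the 2 farthest mice these r were 0.45, 0.57, 0.39, 0.22 and 0.50.

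Genes were ranked only if their mean over that sex was at least 1 FPKM. Cyp4a12b, at 0.741 FPKM in females, was therefore given no place there. Over the 12 females Cyp4a12a varied between 0.56 and 4.58 FPKM. Among the 2235 genes ranked, Cyp4a12a was most like the male-biased Mup7 (r = 0.90, rho = 0.88) and Mup14 (r = 0.83, rho = 0.79). Rnf169 (0.74), Znrf1 (0.73) and Cep85l (0.70) followed. Without the 2 farthest mice r was 0.78 for Mup7 and 0.63 for Mup14. Between the members r was 0.84 and rho 0.67 in females, an r above that of Mup14. Mup7 was at 311.19 FPKM in mouse 2 of the AhR group, the highest of the 12 females, where Cyp4a12a was highest too.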

How the data were processed

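RNA was taken from whole liver of 24 alcohol-fed mice, per the labels' protocols, and libraries were made by standard BGI protocols. The submitters' processing notes name HISAT, Bowtie2 and the GRCm38.p6 build; no version, read length, strand or counting method is given there. The authors deposited 1 table whose name speaks of raw counts, while its columns are headed FPKM and hold values with 2 decimals; they were treated as FPKM, per the file headers. FPKM carry no depth, so precision comes from replicates alone. The labels do not say whether mice were handled in batches.

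limma 3.58.1 (R 4.3.3) was run on log2(FPKM + 0.5) with 1 mean per group, intensity trend and robust moderation, on the 2299 genes that reached 1 FPKM in 3 or more libraries; 73 genes were left out. The fit had 16 residual degrees of freedom, 19 comparisons were made, and Benjamini-Hochberg adjustment ran over the 2299 genes in each comparison with a threshold of 0.05. The fit was also run on simulated data for a single comparison, the Kdm5 vectors against control vectors in males. The outcome of that run is not reported here. The share of Cyp4a12a was tested by permutation (SciPy 1.17.1). Transcripts of GENCODE vM21 were aligned with Biopython 1.88.

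The members and gene lists were chosen with earlier results of these data known. In every comparison the text names both members; the other Cyp4 genes are given for sex and, as a count, for the vectors; of each other list up to 3 genes with the largest change past the threshold are named in the comparison described. Single values of some listed genes are not reported here. Alternatives were other pseudocounts (0.1 and 1), filters (none, and at least 5 FPKM), scaling, moderation, libraries in the fit, summed copies and each library left out.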

Additional observations from a re-analysis of the deposited data

How the results depend on the processing

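Both members were lower in females in all 4 vector settings under each alternative run, and passed the threshold in each. No vector difference passed in any. With the summed FPKM of both copies, the Kdm5 difference in females became 0.064 where Cyp4a12a alone had -0.06, and the difference with both kinds of vector in males became -0.057 where Cyp4a12b alone had 0.03. In fits restricted to females, or to the compared groups of females, Cyp4a12b had too few values of 1 FPKM and gave no value. A summed FPKM of at least 5 left 1 female, so the share could not be tested at that setting.

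Leaving out 1 library at a time turned the direction of uncalled differences. In females, the Kdm5 difference ranged from -0.44 to 0.36 for Cyp4a12a and from -0.057 to 0.44 for Cyp4a12b. The AhR difference ranged from -0.50 to 0.53 and from -0.27 to 0.70, and that with both from -0.40 to 0.18 and from -0.25 to 0.056. Adding the AhR vector gave -0.51 to 0.29 for Cyp4a12a. Adding the Kdm5 vectors gave -0.67 to 0.35 for Cyp4a12a and -0.76 to 0.21 for Cyp4a12b. The interaction for Cyp4a12a ranged from -0.63 to 0.41. In males, both kinds of vector gave -0.21 to 0.013 for Cyp4a12a and -0.053 to 0.12 for Cyp4a12b. The sex difference of the effect ranged from -0.089 to 0.71 for Kdm5 in Cyp4a12a, from -0.21 to 0.81 and from -0.16 to 0.81 for AhR in Cyp4a12a and Cyp4a12b, and from -0.30 to 0.28 and from -0.28 to 0.024 for both. The cause of these turns was not tested.

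No paired analysis was possible because the labels give no number that ties mice of different groups; replicate numbers here follow the accession order. Nothing says how the mice of a group were housed or processed. The unknown depth limits what can be said of the female levels.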
